A study of Homo sapiens with 6 samples.

Results

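The leukocyte integrins were represented by 10 chains, the alpha chain genes ITGAL, ITGAM, ITGAX, ITGAE, ITGA4 and ITGA6 and the beta chain genes ITGB1, ITGB2, ITGB3 and ITGB7, out of 19775 genes that the array names. Every probe set whose platform annotation gave one of these symbols and no other was taken, which gave 31 of 54613 probe sets. Their mRNA levels were compared between parental BCWM1 cells (3 samples) and BCWM1 cells labelled as mutated (3 samples). BCWM1 is an established human line grown from Waldenström macroglobulinemia, a B cell lymphoma whose cells mature towards plasma cells. The series title ties the mutation to the chemokine receptor gene CXCR4, whose ligand is CXCL12, and writes it as C1013G. The origin of the mutated cells, such as a single clone or a pool, is not stated in the labels, and no treatment or time is named for either group. Nothing in the labels tells whether samples came from separate cultures, so the p-values reflect only the spread between these samples, and that spread may be technical.

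Integrins are pairs of an alpha and a beta chain that hold a cell to other cells and to the extracellular matrix. An alpha chain reaches the cell surface only together with a beta chain, and the pair decides which ligand is bound. Signals from chemokine receptors, CXCR4 among them, act through small GTPases and the adaptors talin and kindlin to switch integrins from a bent, low-affinity shape to an extended, high-affinity one. B cells use the pairs of ITGAL with ITGB2 and of ITGA4 with ITGB1 or ITGB7 to arrest on endothelium and to stay in lymph node, bone marrow and gut.

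Total RNA was labelled as biotinylated cRNA and hybridised to 1 array per sample, and the deposited values are intensities per probe set on a linear scale. Median intensity lay between 28.46 and 29.13 on the parental arrays and between 30.93 and 31.83 on the mutated arrays. Pearson's r across probe sets, which are not independent replicates, ranged from 0.994 to 0.996 for samples of one group and from 0.967 to 0.970 for samples of different groups. The 11 B lymphoid markers with a probe set, MS4A1, PAX5 and CD79A the brightest, were all above the filter on dim probe sets. Of these, 4 rose while 5 fell, BLK (−1.57) and TNFRSF17 (−1.89) by most, against 30.1% rising and 18.9% falling among all genes tested. The summed intensity of the 11 markers was 28180 to 29017 in parental and 26173 to 27351 in mutated cells. Of 10 markers of T and NK cells, 7 lay under 31.83, the highest array median, on every array, as did 4 of 7 platelet markers and 9 of 13 fibroblast, endothelial and epithelial markers. The brightest of the latter were COL1A1, which fell from 710 to 442 on 1556499_s_at (log2 change −0.67), and PECAM1, which leukocytes also express and which rose from 333 to 561 (0.72). The other tested COL1A1 probe sets were dim, with parental means of 21.9 to 62.7. Of these, 202311_s_at fell (−0.32) to a mutated mean of 15.1, and the others, at −0.22 to 0.13, did not pass. In bulk RNA, fewer cells that express a gene and less RNA per cell cannot be told apart.

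All fold changes are differences of log2(intensity + 16), mutated minus parental, a scale that understates the change of dim probe sets. Probe sets in the dimmest 40% by mean were left out, which kept 22 of the 31 integrin probe sets and at least 1 for each of the 10 genes. The mean intensity of the dimmest integrin probe set that was kept was 20.5 (ITGA6), and that of the brightest left out was 15.7 (ITGB1). A gene was represented by its brightest tested probe set. By limma with Benjamini-Hochberg adjustment over all 32768 tested probe sets, at a threshold of 0.05, 4 integrin genes rose (ITGAM, ITGAE, ITGB1 and ITGB3), 3 fell (ITGAL, ITGA4 and ITGB7) and 3 did not pass (ITGB2, ITGAX and ITGA6). Of all 13644 genes tested 49.0% passed, 30.1% rising and 18.9% falling, so that 7 of 10 is to be read against a comparison in which about every other gene passed. The groups did not overlap in 7 of the 10 integrin genes, against 61.2% of all genes, nor in 13 of the 22 integrin probe sets, against 57.8% of all probe sets. The median log2 change of the 10 was −0.02, against 0.04 over all genes tested. Over probe sets, 6 of the 22 rose, 6 fell and 10 did not pass, against 30.9% rising and 16.6% falling among all tested. The size of the change set ITGAM and ITGAL apart from the other members: 3.77% of all genes passed with a rise of at least 1 on the log2 scale and 1.55% with such a fall.

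**Figure D1:**
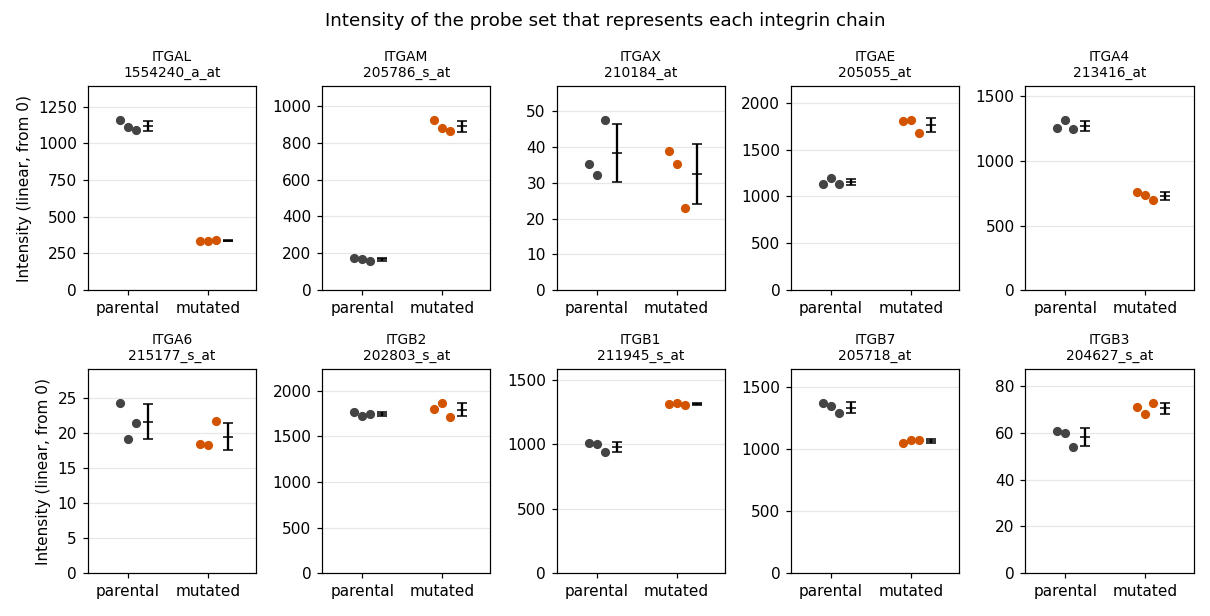
Intensity (linear axis from 0, its own scale in each panel) of the probe set that represents each of the 10 integrin chains, in 3 parental (grey) and 3 mutated (orange) samples, with the mean and SD beside the points. ITGAM rises from between 158 and 176 to between 866 and 923, ITGAL falls from between 1089 and 1158 to between 335 and 341, and ITGB2, ITGAX and ITGA6 overlap.

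ITGAL encodes CD11a, the alpha chain of LFA-1, which binds ICAM-1 and its relatives and gives lymphocytes firm adhesion to endothelium and to other leukocytes. On its brighter probe set, 1554240_a_at, ITGAL measured 1158, 1109 and 1089 in the parental samples and 335, 336 and 341 in the mutated samples. The lowest parental value was above 3 times the highest mutated value. The mean fell from 1119 ± 35.4 to 338 ± 3.34 (SD, n = 3); the log2 change was −1.68 (SE 0.048; limma, Benjamini-Hochberg adjusted p = 1.6e-06). Its other probe set, 213475_s_at, read 945, 850 and 920 in parental and 355, 314 and 369 in mutated samples, a log2 change of −1.35 (SE 0.076), so that both probe sets of the gene showed the fall. ITGAL had the 80th largest fall of 13644 genes.

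ITGAM encodes CD11b, the alpha chain of Mac-1, the complement receptor of granulocytes, monocytes and some B cells, which binds the complement fragment iC3b, fibrinogen and ICAM-1. On the probe set 205786_s_at it measured 176, 168 and 158 in the parental samples and 923, 879 and 866 in the mutated samples, with no overlap. The mean rose from 167 ± 8.80 to 890 ± 29.6 (SD, n = 3); the log2 change was 2.31 (SE 0.057; limma, Benjamini-Hochberg adjusted p = 1e-06). This was the 117th largest rise of 13644 genes. The other ITGAM probe set, 205785_at, did not show it. It was dim, at 45.0, 38.6 and 42.6 in parental and 21.8, 41.5 and 46.3 in mutated samples, and its log2 change was −0.18 with a 95% interval of −0.62 to 0.27, which leaves out a rise of the size seen on 205786_s_at. Without suffix _s_at and suffix _x_at probe sets, whose probes can match more than a single transcript, this dim probe set alone stood for ITGAM and the gene was not called. Where the probes of either set lie along the transcript was not analysed here.

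Myeloid markers were measured because ITGAM and ITGAX are best known from myeloid cells. The summed intensity of the 11 markers with a probe set was 924 to 973 in parental and 3062 to 3182 in mutated cells. S100A9, a calcium-binding protein abundant in neutrophils, made up most of it, with 644, 694 and 685 in parental and 2675, 2803 and 2723 in mutated samples (log2 change 1.99). MS4A7 rose as well (0.77), while CSF3R fell (−0.32), and the other tested markers, S100A8, CSF1R and MPO, did not pass. The 8 markers CD14, LYZ, CSF1R, MPO, ELANE, S100A8, S100A12 and CD163 lay under 31.83 on every array of both groups. The part of S100A9 and MS4A7 in the rise of ITGAM was not tested.

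ITGAX, the gene of CD11c, the alpha chain of a further complement receptor that marks dendritic cells and some B cell subsets, was dim in both groups. Its tested probe set, 210184_at, read 35.2, 32.1 and 47.5 in parental and 38.9, 35.4 and 23.0 in mutated samples, and the groups overlapped. The log2 change of −0.17 did not pass (limma, Benjamini-Hochberg adjusted p = 0.42) and its 95% interval ran from −0.55 to 0.21. The other ITGAX probe set was under the filter, with at most 8.83 on any array.

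ITGB2 encodes CD18, the beta chain that ITGAL, ITGAM and ITGAX share. On its brightest probe set, 202803_s_at, it read 1762, 1727 and 1742 in parental and 1798, 1860 and 1713 in mutated samples. The log2 change of 0.04 did not pass (limma, Benjamini-Hochberg adjusted p = 0.59), and the 95% interval was narrow, from −0.08 to 0.16. The other probe sets of ITGB2 changed in opposite directions. 1555349_a_at fell from 1278 ± 59.5 to 1036 ± 24.3 (SD, n = 3; log2 change −0.30) and the dimmer 236988_x_at rose from 182 ± 14.7 to 270 ± 30.6 (log2 change 0.53), each without overlap between the groups. Each of the 3 thus stayed within a log2 change of 0.53, well short of the changes of ITGAL and of the bright ITGAM probe set. Which transcripts of ITGB2 each of them reads was not analysed here.

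**Figure D2:**
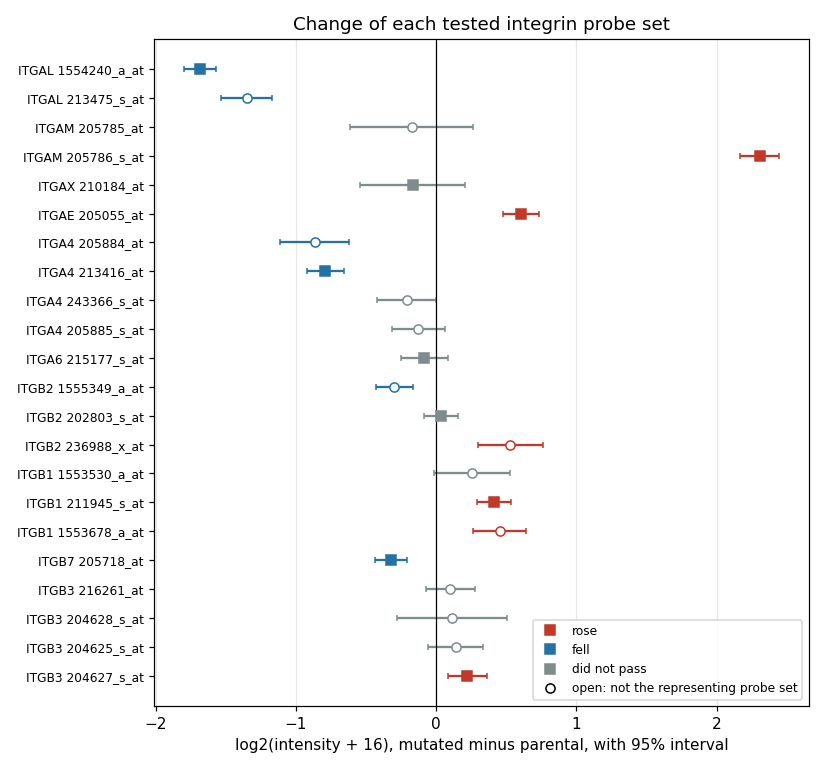
Log2 change (mutated minus parental, horizontal axis) with its 95% interval for each of the 22 tested integrin probe sets, squares for the probe set that represents its gene and open circles for the others, coloured by whether it rose, fell or did not pass. Both ITGAL probe sets lie below −1.3, the ITGAM probe sets lie at 2.31 and −0.18, and the 3 probe sets of ITGB2 spread from −0.30 to 0.53.

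The stretch in front of the ITGAM start site is shown because that gene rose most among the integrins, and those of ITGAE, ITGA4 and ITGB7 because they changed without overlap between the groups and, like ITGAM, have 1 listed start site. These are the 250 bases before the start site in RefSeq, build GRCh38.p14, written 5′ to 3′ along the gene's strand, at chr16:31259725-31259974 (plus strand) for ITGAM, chr17:3801189-3801438 (minus strand) for ITGAE, chr2:181457136-181457385 (plus strand) for ITGA4 and chr12:53207252-53207501 (minus strand) for ITGB7. Of the 10 integrin genes 6 were matched in the promoter table. The other matched genes, ITGB1 and ITGA6, have 2 listed start sites each and are not printed. Capitals mark matches on either strand to the RUNX core TGTGGT, to GAGGAA, a core bound by the myeloid and B cell factor PU.1, and to the GC box GGGCGG of SP1. No 2 of the matches overlap.
ITGAM: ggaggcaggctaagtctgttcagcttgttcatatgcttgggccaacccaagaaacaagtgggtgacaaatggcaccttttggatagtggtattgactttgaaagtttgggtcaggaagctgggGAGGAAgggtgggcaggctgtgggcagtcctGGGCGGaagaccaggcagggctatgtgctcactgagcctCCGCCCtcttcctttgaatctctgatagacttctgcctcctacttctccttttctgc
ITGAE: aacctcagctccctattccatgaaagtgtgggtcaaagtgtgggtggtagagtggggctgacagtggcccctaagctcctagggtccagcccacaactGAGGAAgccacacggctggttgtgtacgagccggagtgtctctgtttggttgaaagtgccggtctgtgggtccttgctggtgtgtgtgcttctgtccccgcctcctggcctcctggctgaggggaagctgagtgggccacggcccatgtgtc
ITGA4: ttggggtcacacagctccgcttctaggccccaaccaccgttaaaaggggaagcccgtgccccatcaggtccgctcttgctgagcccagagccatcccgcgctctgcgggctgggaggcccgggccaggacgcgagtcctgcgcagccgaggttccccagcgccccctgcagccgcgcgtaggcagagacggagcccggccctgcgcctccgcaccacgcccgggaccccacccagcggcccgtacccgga
ITGB7: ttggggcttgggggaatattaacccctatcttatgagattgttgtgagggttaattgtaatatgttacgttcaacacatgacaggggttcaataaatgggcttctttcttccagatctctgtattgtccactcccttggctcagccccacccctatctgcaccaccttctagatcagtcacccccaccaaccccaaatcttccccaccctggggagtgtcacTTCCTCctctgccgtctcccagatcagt

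The ITGAM stretch holds GAGGAA from 127 to 122 bases before the start site and the GC box at 96 to 91 and, on the opposite strand, at 57 to 52 bases before it. GAGGAA lies 152 to 147 bases before the ITGAE start and, on the opposite strand, 28 to 23 bases before the ITGB7 start. The ITGA4 stretch holds none of these letters. Counting any listed start, 4 of the 6 matched genes hold GAGGAA, 3 the GC box and 1 the RUNX core. Such matches are common: of 35116 promoter stretches of the same length, 23.6% hold GAGGAA, 42.6% the GC box and 10.98% the RUNX core on either strand. They describe the sequence, and no binding was measured.

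The integrin genes of gut and marrow homing moved less than ITGAL and ITGAM. ITGA4 encodes CD49d, which pairs with the chain of ITGB1 to bind VCAM-1 and fibronectin and with that of ITGB7 to bind MAdCAM-1 in the gut. On the probe set 213416_at, ITGA4 read 1251, 1315 and 1249 in parental and 756, 737 and 696 in mutated samples, with no overlap. The mean fell from 1272 ± 37.2 to 730 ± 30.8 (SD, n = 3); the log2 change was −0.79 (SE 0.054; limma, Benjamini-Hochberg adjusted p = 6.9e-05). The probe set 205884_at fell by a like amount, from 428, 359 and 335 to 215, 193 and 183 (log2 change −0.86). The remaining ITGA4 probe sets were lower by less and did not pass: 205885_s_at gave −0.13, with overlapping groups, and 243366_s_at −0.21 (limma, Benjamini-Hochberg adjusted p = 0.090). Quantile normalization and median centring brought 243366_s_at past the threshold (−0.38 and −0.29). All 4 ITGA4 probe sets were therefore lower in mutated cells, the size of the difference depending on the probe set.

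ITGB1 encodes CD29, the beta chain shared by the receptors of fibronectin, laminin and collagen. It read 1008, 1001 and 938 in parental and 1315, 1317 and 1302 in mutated samples on 211945_s_at, and the groups did not overlap. The mean rose from 982 ± 38.3 to 1311 ± 8.17 (SD, n = 3); the log2 change was 0.41 (SE 0.050; limma, Benjamini-Hochberg adjusted p = 7.9e-04). The probe set 1553678_a_at rose too, by 0.45 on the log2 scale, and 1553530_a_at gave 0.26 with overlapping groups and did not pass (limma, Benjamini-Hochberg adjusted p = 0.10), though it did with the trend and robust options of eBayes (0.040) and with the replicate number as a block (0.019). The other 4 ITGB1 probe sets were under the filter, with at most 19.2 on any array.

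ITGB7 encodes the beta chain of the gut-homing integrins and has a single probe set, 205718_at. It read 1365, 1346 and 1284 in parental and 1044, 1073 and 1069 in mutated samples. The mean fell from 1332 ± 42.2 to 1062 ± 15.2 (SD, n = 3); the log2 change was −0.32 (SE 0.048; limma, Benjamini-Hochberg adjusted p = 0.0020). Both chains of the ITGA4 and ITGB7 pair were thus lower in mutated cells, whereas ITGB1 was higher. ITGAE encodes CD103, the alpha chain that pairs with that of ITGB7 and binds E-cadherin on epithelium. Its single probe set, 205055_at, read 1134, 1193 and 1133 in parental and 1803, 1813 and 1679 in mutated samples. The mean rose from 1154 ± 34.2 to 1765 ± 74.6 (SD, n = 3); the log2 change was 0.61 (SE 0.054; limma, Benjamini-Hochberg adjusted p = 2.2e-04). CDH1, the gene of E-cadherin, was under the filter on dim probe sets.

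ITGA6 and ITGB3 were dim. ITGA6 encodes the alpha chain of laminin receptors, and its tested probe set 215177_s_at read 24.2, 19.2 and 21.4 in parental and 18.4, 18.3 and 21.6 in mutated samples. The log2 change of −0.08 did not pass, with a 95% interval of −0.25 to 0.08. ITGB3 encodes the beta chain of the platelet fibrinogen receptor and of the vitronectin receptor. Its brightest probe set, 204627_s_at, read 60.8, 59.98 and 53.7 in parental and 71.0, 67.9 and 72.4 in mutated samples. The rise from 58.2 ± 3.86 to 70.4 ± 2.31 (SD, n = 3) was small, a log2 change of 0.22 (SE 0.058; limma, Benjamini-Hochberg adjusted p = 0.019). That call was lost with quantile normalization (log2 change 0.05), with median centring (0.14), with the trend and robust options of eBayes, without parental replicate 3 (0.18, adjusted p = 0.053) and without mutated replicate 1 (0.22, adjusted p = 0.056). The other 3 tested ITGB3 probe sets gave 0.10 to 0.14 with overlapping groups and did not pass, and 3 more were under the filter. Beside this, the summed intensity of 7 platelet markers was 134 to 154 in parental and 126 to 140 in mutated cells.

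Because the chains work as pairs, the change of each alpha chain was set against that of its partner within each sample, on the log2 scale, for 9 known pairs. Only the shift between groups is read here, not the level of one chain against the other. In 7 of 9 pairs the groups did not overlap, against 62.0% of all pairs of tested genes treated in the same way, so that nothing particular to these pairs is read from the count. The shift of ITGAM against ITGB2 was 2.20 to 2.31 in the 3 mutated samples relative to the parental mean, and −0.07 to 0.05 in the parental samples. That of ITGAL against the same ITGB2 probe set ran the other way, at −1.78 to −1.64, while the parental samples stayed within −0.04 to 0.03. These shifts averaged 2.27 and −1.72. Over all combinations with the 3 ITGB2 probe sets, ITGAL gave −2.21 to −1.05, whereas the dim ITGAM probe set gave −0.70 to 0.12 and the bright one 1.78 to 2.60.

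On the probe set that represents it, ITGA4 shifted by −1.20 against ITGB1 and by −0.47 against ITGB7. The ITGA4 probe sets 205885_s_at (−0.13) and 243366_s_at (−0.21) were lower by less than ITGB7 (−0.32). The direction of ITGA4 against ITGB7 thus depended on the probe set. ITGAE shifted by 0.93 against ITGB7, and the chains of this pair moved in opposite directions. ITGA6 shifted by −0.50 against ITGB1, and ITGAV by 0.50 against ITGB3. The change of the dim ITGA6 itself did not pass (−0.08), so its shift against ITGB1 is mostly the rise of ITGB1 (0.41). The shifts of ITGAX against ITGB2 (−0.21) and of ITGA6 against ITGB4 (−0.24) were no larger than the SD of the parental samples, with overlapping groups. That SD was 0.21 and 0.25, and the SD of the mutated samples was 0.22 and 0.14. With 3 samples against 3, the exact permutation test, two-sided, cannot give a p under 0.10. This exact permutation test gave p = 0.10 for the 7 pairs without overlap (0.13 adjusted over the 9 pairs by Benjamini-Hochberg), 0.40 for ITGAX with ITGB2 and 0.30 for ITGA6 with ITGB4. Taking the mean over the probe sets of a gene reduced the shift of ITGAM against ITGB2 to 0.98 and that of ITGA4 against ITGB7 to −0.18.

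**Figure D3:**
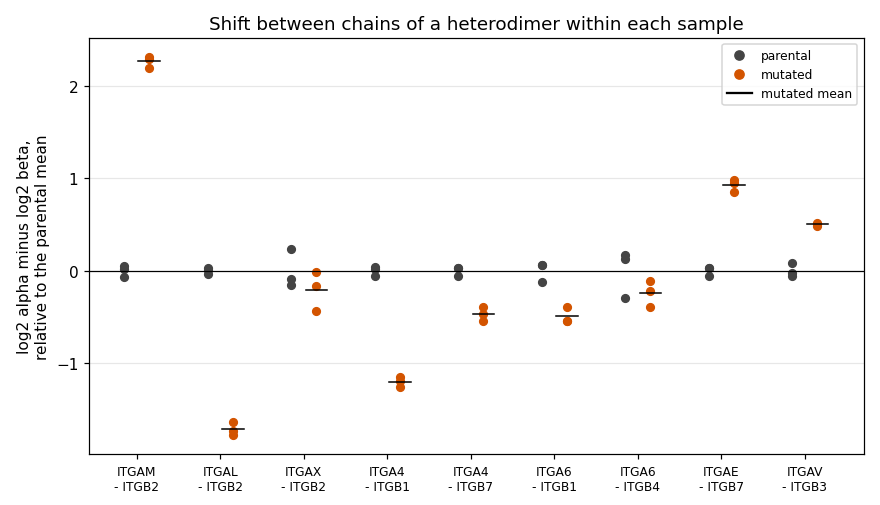
Within-sample log2 difference between an alpha and a beta chain, relative to the parental mean of that difference (vertical axis), for 9 pairs in 3 parental (grey) and 3 mutated (orange) samples, the line marking the mutated mean. ITGAM and ITGAL shift in opposite directions against their common partner ITGB2, by 2.27 and −1.72.

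Other integrin chains numbered 9 tested, of which 4 rose, 1 fell and 4 did not pass, with 6 more under the filter. The 5 that passed are near the 49.0% of all genes (30.1% rising, 18.9% falling). ITGB5, a beta chain that pairs with ITGAV to bind vitronectin, rose from 46.3 ± 4.42 to 198 ± 5.54 (SD, n = 3), or 1.78 on the log2 scale. Its other tested probe sets rose by 3.65 and 0.54, and the first of these stood for the gene when any 1 parental replicate was left out (3.62 to 3.69). Their parental means, 13.0 and 17.8, lay under the intensity at which the filter was set (18.01). Both were thus tested through their mutated values, and the size of these rises is not measured well. ITGAV, the alpha chain of the vitronectin receptors, rose from 578 ± 10.1 to 964 ± 20.6 (log2 change 0.72) and ITGB8, a further partner of ITGAV, from 740 ± 29.9 to 1215 ± 22.9 (0.70). ITGA5, the alpha chain of the fibronectin receptor, rose from a dim 16.8 ± 3.84 to 33.8 ± 3.25 (0.61). This parental mean also lay under 18.01, so that ITGA5 was tested through its mutated values and the size of its rise is not measured well. ITGA1, the alpha chain of a collagen receptor, fell from 158 ± 11.2 to 16.03 ± 5.54 (SD, n = 3), or −2.45 on the log2 scale, and by 1.55 on its other tested probe set. Its mutated means lay under 18.01, the intensity at which the filter was set, and the change was −3.26 with a pseudocount of 1 and −1.47 with 64. The adjusted p of these 5 genes was at most 0.0028 (limma with Benjamini-Hochberg adjustment).

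Genes of integrin ligands and counter-receptors numbered 16 tested, of which 7 rose, 2 fell and 7 did not pass, with 8 more under the filter, against 30.1% rising and 18.9% falling among all genes. The median log2 change was 0.25, against 0.04 over all genes. When _s_at and _x_at probe sets were left out, the count that fell was 0. ICAM1, a ligand of the ITGAL and ITGAM pairs, fell from 1339 ± 42.6 to 983 ± 27.3 (SD, n = 3; log2 change −0.44) and on both of its other probe sets (−0.80 and −0.60), and VCAM1, a ligand of the ITGA4 pairs, from 1034 ± 46.6 to 732 ± 46.4 (−0.49). ICAM2, also a ligand of the ITGAL pair, rose from 1190.5 ± 66.3 to 1677 ± 62.9 (0.49) and by 0.60 on its other probe set, and ICAM3 (0.05) and the gut ligand MADCAM1 (0.26) did not pass. JAM2, which binds the ITGA4 and ITGB1 pair, rose by 2.78 on the log2 scale and by 0.90 on its other probe set. FN1, fibronectin, rose from 105 ± 16.2 to 312 ± 30.2 (SD, n = 3; log2 change 1.44), and 3 of its other tested probe sets rose by 2.70 to 3.41 while 1, 1558199_at, gave −0.03 and did not pass. The laminin chain genes LAMA1 (1.38) and LAMC1 (0.72) rose on both of their tested probe sets. Parental cells gave means under 18.01, where the filter was set, on FN1 211719_x_at (12.2), JAM2 229127_at (13.1) and LAMA1 222346_at (16.85). These probe sets were kept because of their mutated values, so their rises, 3.41 for FN1, 0.90 for JAM2 and 0.81 for LAMA1, are poorly measured in size. C3 (0.57), the complement component from which the ITGAM ligand is cut, and FBN1 (0.29), fibrillin, rose as well. The adjusted p of these named genes that changed was at most 0.0022 (limma with Benjamini-Hochberg adjustment).

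Genes that switch integrins on from inside the cell numbered 18 tested, of which 8 fell, 1 rose and 9 did not pass, against 18.9% falling and 30.1% rising among all genes, with a median log2 change of −0.12. The count that fell was 5 when no filter was set and when _s_at and _x_at probe sets were left out. It was 5 or 6 whenever 1 sample was left out. Of all probe sets, 4851 of 54613 fell without a filter and 3185 of 21484 without those suffixes. With 1 sample left out 4314 to 5367 of 32768 fell, against 5433 with all samples. RAPGEF1, an exchange factor that loads the GTPase RAP1, fell from 920 ± 26.2 to 570 ± 21.8 (SD, n = 3; log2 change −0.68), though its dimmest tested probe set rose (0.47). FERMT2, a kindlin, fell by 0.36 on the log2 scale and on its other 2 tested probe sets as well (−0.46 and −0.52). STK4, a kinase that relays RAP1 signals to the ITGAL pair, fell from 2595 ± 46.1 to 2060 ± 137 (−0.33), with other probe sets from −0.47 to 0.25. RAP1A (−0.19) and RAP1B (−0.18), the GTPases themselves, and their effectors RASSF5 (−0.18) and APBB1IP (−0.24) fell by small amounts on the probe sets that represent them, as did PRKCB (−0.17). Other probe sets rose for APBB1IP (0.64, from 182 to 292) and RAP1A (0.32), and the other tested ones of PRKCB gave −0.21 to 0.39 and did not pass. TLN2, a talin, rose from 32.2 ± 5.22 to 64.4 ± 3.17 (0.74). TLN1 did not pass on its brightest probe set (0.15) but rose on 236132_at, from 55.5 ± 5.97 to 93.1 ± 7.62 (0.61), and the leukocyte kindlin FERMT3 (−0.11) did not pass. The adjusted p of the named genes that changed was at most 0.035, or 0.036 with the other probe sets of APBB1IP, RAP1A and TLN1 (limma with Benjamini-Hochberg adjustment). Among 6 tested genes that hold integrins inactive, only DOK1, an adaptor that competes with talin for beta chain tails, rose (0.46) on its brightest probe set, and 5 did not pass. The other DOK1 probe set gave 0.21 with overlapping groups and did not pass. ITGB1BP1, 1 of the 5, rose on its probe set 203337_x_at (0.26; limma, Benjamini-Hochberg adjusted p = 0.017). In this list 1 gene fell with quantile normalization, with the dimmest 60% left out, with a pseudocount of 64 and with the trend and robust options, and 2 fell with median centring, while 2 rose with probe sets averaged per gene and without mutated replicate 3.

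**Figure D4:**
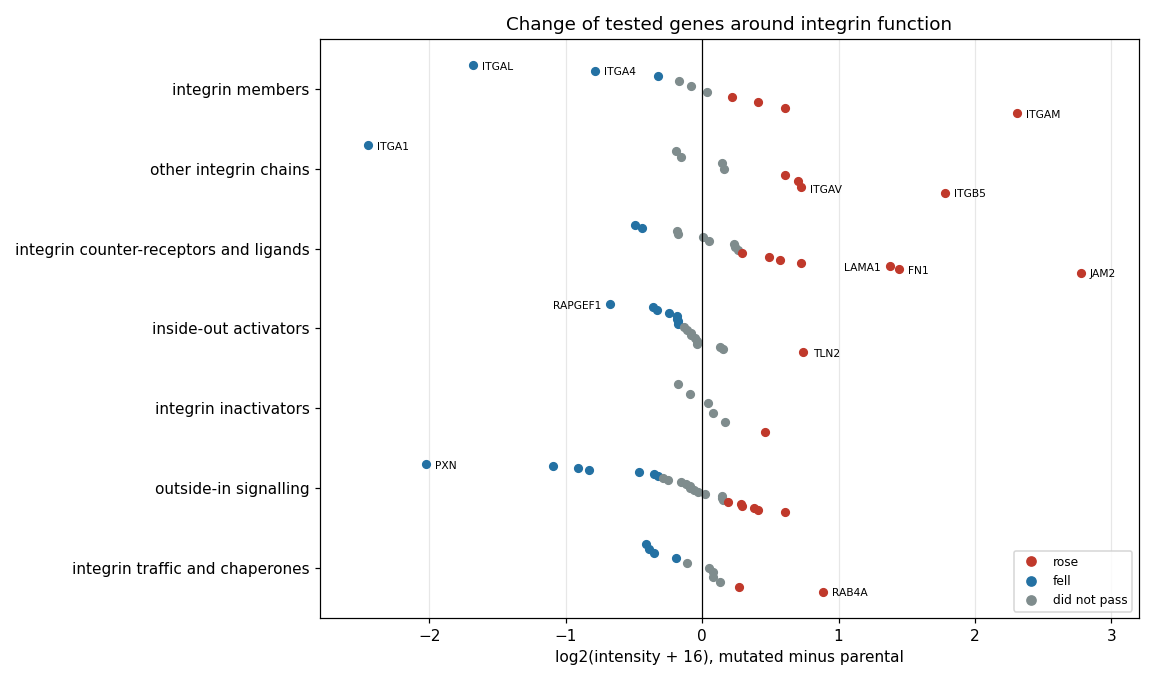
Log2 change (mutated minus parental, horizontal axis) of the tested genes of the 10 integrin chains and of 6 further gene lists, 1 point per gene, coloured by whether it rose, fell or did not pass. ITGAM, ITGAL and ITGA1 lie far from 0, ligand genes reach 2.78 (JAM2), and most inside-out activators lie between −0.68 and 0.

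Genes that signal from bound integrins numbered 25 tested, of which 6 rose, 7 fell and 12 did not pass, against 30.1% and 18.9% of all genes. The scaffold gene NEDD9 fell from 2292 ± 79.4 to 1211 ± 35.7 (SD, n = 3; log2 change −0.91), with other probe sets from −1.31 to −0.10. PARVG, the parvin of blood cells, fell from 354 ± 20.6 to 192 ± 14.2 (−0.83), while its further probe sets gave −0.39 and 0.13. PXN, the gene of the scaffold paxillin, read 102, 126 and 84.9 in parental and 13.9, 15.9 and 10.1 in mutated samples on its only tested probe set. The mutated values lay under 18.01, the intensity at which the filter was set, so that the probe set was tested through its parental values and the size of the fall is not measured well, at −2.03 on the log2 scale, −2.88 with a pseudocount of 1 and −1.12 with 64. ACTN1, which links beta chains to actin, rose by 0.61, though its other probe sets gave −0.04 and 0.01 and did not pass. The adjusted p of these 4 genes was at most 1.9e-04 (limma with Benjamini-Hochberg adjustment). Genes of integrin recycling and of chaperones numbered 11 tested, of which 2 rose, 4 fell and 5 did not pass, against 30.1% and 18.9% of all genes. The count that fell was 2 when _s_at and _x_at probe sets were left out. RAB4A, a GTPase of rapid recycling, rose from 606 ± 12.7 to 1134 ± 27.3 (SD, n = 3; log2 change 0.89) and by 1.24 and 1.25 on its other probe sets, while GGA3 (−0.39), an adaptor of recycling endosomes, fell. For RAB21 (−0.35) and SNX27 (0.27) another probe set passed in the opposite direction, at 0.36 and −0.28. HSP90B1 (0.05), a chaperone of newly made integrins, and CNPY3 (0.08), a further chaperone gene of this list, did not pass on their brightest probe sets. Other probe sets of CNPY3 rose by 0.84 (from 177 to 329) and 0.67 and a further one gave 0.08, and 216450_x_at of HSP90B1 fell by 0.46. Over all 6 lists, 21 of 85 tested genes rose and 22 fell.

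ITGAM, ITGAX and ITGAD are consecutive coding genes on chromosome 16 in RefSeq, and ITGAL lies apart on the same chromosome. The ITGAM rise on 205786_s_at was not shared by its relatives in that cluster, since ITGAX did not pass and the probe set of ITGAD was under the filter, with a mean of 8.25 in parental and 5.22 in mutated cells. Of the 6 nearest tested neighbours of ITGAM, 3 on each side, PYCARD, the inflammasome adaptor ASC, rose from 171 ± 9.24 to 506 ± 24.7 (SD, n = 3); the log2 change was 1.48 (SE 0.062; limma, Benjamini-Hochberg adjusted p = 7.8e-06). ZNF843, a zinc finger gene, fell (−0.74), and PYCARD-AS1, TRIM72, ITGAX and COX6A2 did not pass, nor did ARMC5, which is among the nearest of ITGAX. Among the 6 tested neighbours of ITGAL, SEPHS2 (−0.54), DCTPP1 (−0.46), ZNF747 (−0.42) and ZNF764 (−0.29) fell, by less than ITGAL, and ZNF48 and ZNF688 did not pass. Among all genes tested 30.1% rose and 18.9% fell, and a part of chromosomal position in these changes was not tested.

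**Figure D5:**
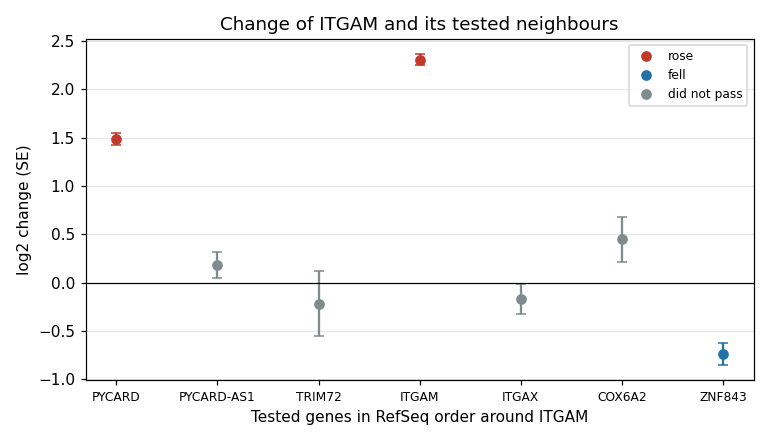
Log2 change with its SE (vertical axis) of ITGAM and of the 3 nearest tested genes on each side, in RefSeq order along chromosome 16 and not to scale. ITGAM (2.31) and PYCARD (1.48) rose, ZNF843 (−0.74) fell, and the 4 others, ITGAX among them, did not pass.

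The genes whose log2 values over the 6 samples lay nearest to those of ITGAM, each taken relative to its own parental mean, were LARP6, FRMD6 and PTX3, at Euclidean distances of 0.11, 0.15 and 0.15. PTX3, a secreted pattern recognition protein, rose from 52.7 ± 4.41 to 340 ± 8.82 (SD, n = 3). For ITGAL the nearest were DOCK8, PLAGL1 and SYT9-AS1, at 0.10, 0.11 and 0.14. DOCK8, an exchange factor of lymphocyte migration, fell from 1952 ± 36.3 to 600.2 ± 9.54 (SD, n = 3). With 2 groups of 3, this likeness reflects mainly an equal difference between the groups.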

How the data were processed

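The authors deposited a linear intensity for each probe set. The summary and normalization methods, not given in the sources used here, could not be checked. Detection calls were not used. Groups came from the sample titles. The platform annotation gives 1 symbol for 41091 probe sets, several for 1801 (not named) and none for 11721; 41037 matched a GRCh38.p14 RefSeq table by Entrez ID.

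Values were taken as log2(intensity + 16), the dimmest 40% left out, and 32768 probe sets fitted with limma 3.58.1 (lmFit, eBayes, two-sided, group only) in R 4.3.3, with p-values adjusted by Benjamini-Hochberg over all. Probe set numbers are the platform's. Named were all integrin probe sets, up to 4 genes of each list with the smallest adjusted p, the 3 genes nearest in pattern to ITGAM and ITGAL, and chromosomal neighbours; further list genes were named after their values were seen, as were the promoter motifs. The members and lists were chosen with earlier results of these data known. Simulated data had the spread of these samples, with 100 of 32768 probe sets shifted by each size. There 41% of shifts of 0.5 and 90% of shifts of 1 were recovered, with 3 false calls. In the data 47.5% of tested probe sets passed, far more than were shifted in the simulation, so these rates cannot be carried over. The 6 arrays limit the precision: the median SD of log2 values was 0.044 in parental and 0.045 in mutated cells in the brightest of 4 equal classes of probe sets, and 0.13 and 0.16 in the dimmest. Alternatives were other scalings, filters, pseudocounts (1 and 64), variance models, array weights, probe set choices, a replicate block and leaving out each sample. Figures used matplotlib 3.10.9 in Python 3.11.15.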

Additional observations from a re-analysis of the deposited data

How the results depend on the processing

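Under the alternatives run, the rise of ITGAM on 205786_s_at, of ITGAE and of ITGB1 on 211945_s_at and the falls of ITGAL, ITGA4 on 213416_at and ITGB7 kept their direction and passed wherever those probe sets were used. Without the suffixes _s_at and _x_at, 2 integrin genes rose (2 probe sets) in place of 4 genes (6 probe sets), and 14 genes of the 6 lists fell in place of 22. Fewer probe sets were tested there. Of all 21484, 6952 rose and 3185 fell, against 10120 and 5433 of 32768 with the suffixes kept. In that setting ITGAM gave −0.18, ITGB2 −0.30 and FN1 −0.027, and the shifts were 0.12 for ITGAM and −1.38 for ITGAL against ITGB2, 0.13 for ITGAX against ITGB2 and 0.62 for ITGAV against ITGB3. With probe sets averaged per gene SNX27 gave −0.0052, and shifts were 0.98 (ITGAM, ITGB2), −1.61 (ITGAL, ITGB2), −0.87 (ITGA4, ITGB1), −0.18 (ITGA4, ITGB7) and 0.58 (ITGAV, ITGB3). With a pseudocount of 64 they were 2.01 (ITGAM, ITGB2), −1.59 (ITGAL, ITGB2) and −1.15 (ITGA4, ITGB1), and with a pseudocount of 1, 2.37 (ITGAM, ITGB2). Quantile normalization gave 0.64 (ITGAV, ITGB3), and −0.017 and −0.0087 for the uncalled ITGB3 probe sets 204628_s_at and 216261_at; median centring gave −0.042 for ITGB2 202803_s_at. Leaving out 1 sample at a time gave −0.32 to 0.046 for ITGAM 205785_at, above 0 without mutated replicate 1, and −0.071 to 0.24 for ITGB3 204628_s_at, under 0 without mutated replicate 3. The causes were not tested. Over all probe sets, 65.1% of calls were higher, against 49.98% (quantile) and 50.7% (median centring); the median log2 change of all tested was 0.06, −0.02 and −0.02.

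Samples of the same replicate number shared little: their deviations from the group means correlated at 0.11, 0.03 and 0.11, each sample best with its own number. With the replicate number as a block 9685 probe sets rose and 5212 fell, against 10120 and 5433, and among integrin probe sets only 1553530_a_at of ITGB1 changed its call (adjusted p = 0.019). Dim probe sets limit what can be seen of ITGAX, ITGA6 and ITGB3.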
